A study of Mus musculus with 3 samples.

Results

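The 32 genes described here were 27 immediate early genes, transcribed within minutes of a stimulus, and 5 heat shock genes, whose products hold or refold damaged proteins. They were chosen by symbol, without the use of measured values, from the 31053 genes of a single-cell count matrix of mouse gallbladder, and all 32 were among the 12136 genes that reached 10 CPM (UMIs of a gene per 1000000 UMIs of the class) and 20 UMIs (unique molecular identifiers, each standing for 1 captured transcript molecule) in at least 1 cell class. The gallbladders came from male C57BL/6 mice in 3 groups, a control gavaged with vehicle for 6 weeks, a group gavaged with nanoplastics for 3 weeks and a group gavaged with nanoplastics for 6 weeks. Each group was a pool of 10 gallbladders, minced and shaken in trypsin at 37 °C in repeated rounds of 20 min before droplet-based 3′ library preparation. No age, particle type or dose is given in the labels. The barcodes carry a library number, 1, 2 or 3, that no label ties to a group, so the libraries are unassigned, are not replicates, and no exposed group was compared with the control.

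Immediate early genes need no new protein for their induction: serum response factor and kinase-activated partners at their promoters switch them on, and FOS and JUN family proteins then pair into the AP-1 transcription factor. Their transcripts are short-lived, and several members (Zfp36, Btg1, Btg2, Dusp1, Dusp2) act as brakes on the same response. Heat shock genes are driven by heat shock factor 1, which is released when unfolded proteins engage the chaperones that bind it. Both programmes also respond to enzymatic digestion of tissue at body temperature, and in these libraries, all made from digested tissue, expression in the animal and induction during digestion cannot be told apart.

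Promoter sequences of RefSeq (build GRCm38.p6) were available for 27 of the 32 members, and 200 bases upstream of the start are shown for 6 of them that the results return to. The Hsp70 genes Hspa1a and Hspa1b and the small heat shock gene Hspb1 are shown because they hold the paired heat shock unit GAANNTTC. Capitals mark that unit.
Hspa1a (chr17:34972157-34972356, minus strand): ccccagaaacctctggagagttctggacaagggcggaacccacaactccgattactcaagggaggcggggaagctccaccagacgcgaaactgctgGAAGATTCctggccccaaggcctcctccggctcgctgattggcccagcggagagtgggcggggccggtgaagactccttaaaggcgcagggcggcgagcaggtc
Hspa1b (chr17:34959239-34959438, minus strand): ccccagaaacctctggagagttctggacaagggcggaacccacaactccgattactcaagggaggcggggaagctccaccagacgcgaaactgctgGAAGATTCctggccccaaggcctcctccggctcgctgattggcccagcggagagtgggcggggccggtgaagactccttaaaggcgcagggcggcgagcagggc
Hspb1 (chr5:135887719-135887918, plus strand): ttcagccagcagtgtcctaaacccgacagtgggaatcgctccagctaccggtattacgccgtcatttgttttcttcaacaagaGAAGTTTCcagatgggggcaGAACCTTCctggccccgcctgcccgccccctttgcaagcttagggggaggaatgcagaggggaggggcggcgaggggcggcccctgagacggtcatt

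The Hspa1a and Hspa1b stretches were identical at 199 of 200 bases, with the unit starting 104 bases before the start in both. In Hspb1 the unit occurred at 117 and at 97 bases before the start. Over both strands (the unit is its own reverse complement), 6 of 27 members held GAANNTTC in the window from 250 bases before to 50 bases after the start (Fosl2, Hspa1a, Hspa1b, Hspb1, Hsph1 and Jun), against 9.04% of 27025 genes. Dnajb1, also a heat shock gene, had no match in its windows, which says only that these letters are not there. The next 3 stretches are those of Fos, the founding member of the family, and of Egr2 and Dusp1, both of which differed between the libraries. Capitals mark the TATA box TATAAA in Fos, the serum response element of the CArG type in Egr2, and the cyclic AMP response element TGACGTCA in Dusp1.
Fos (chr12:85473690-85473889, plus strand): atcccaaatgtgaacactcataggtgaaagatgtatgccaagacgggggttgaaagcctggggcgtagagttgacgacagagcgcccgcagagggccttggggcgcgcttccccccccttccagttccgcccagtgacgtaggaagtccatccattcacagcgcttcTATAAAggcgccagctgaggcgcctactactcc
Egr2 (chr10:67537669-67537868, plus strand): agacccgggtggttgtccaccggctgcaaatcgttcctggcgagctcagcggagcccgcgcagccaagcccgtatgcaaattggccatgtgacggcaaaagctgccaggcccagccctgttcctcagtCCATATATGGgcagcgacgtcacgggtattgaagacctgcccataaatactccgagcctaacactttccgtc
Dusp1 (chr17:26508473-26508672, minus strand): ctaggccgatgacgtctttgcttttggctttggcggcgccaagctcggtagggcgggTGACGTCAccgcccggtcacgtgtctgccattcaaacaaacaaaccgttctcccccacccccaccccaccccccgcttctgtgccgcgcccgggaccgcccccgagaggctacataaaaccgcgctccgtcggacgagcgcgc

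None of these marked motifs overlapped another motif searched. TATAAA, read on both strands, was present in 4 of 27 members (Btg1, Fos, Junb and Nr4a2) and in 15.7% of genes. TGACGTCA, its own reverse complement, was present in 3 of 27 members (Btg2, Dusp1 and Maff) and in 2.03% of genes. The CArG box, searched as its symmetrical consensus, was present in 2 of 27 (Egr2 and Zfp36) and in 1.81%. The AP-1 element TGANTCA was present in 0 of 27 and in 8.97%. The Egr2 stretch belongs to 1 of several RefSeq starts of the gene. Matches are descriptions of the letters and not evidence of binding.

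Library totals were 72943584, 121349261 and 58172348 UMIs in libraries 1, 2 and 3, and the median cell kept had 10704, 9666 and 2323 UMIs. Of 26017 kept cells, 22388 (86.1%) carried at least 3 high markers of a single cell type and were gated into classes named "-like" after those markers, and 14 classes of at least 50 cells were compared. The genes leading each class held no more markers of another class than of its own. In the epithelial-like class none of the 10 leading genes was a listed marker of any class. The libraries shared 15 to 22 barcodes pairwise. Against the label of male mice, 119 kept barcodes of library 1 held an Xist UMI, compared with 17 and 28 in libraries 2 and 3. Of 408 macrophage-like cells of library 1, 141 held Xist or markers of microglia or photoreceptors, and leaving such cells out changed the summed immediate early level of the class in that library from 17302 to 17666 CPM. Library 3 had the highest median mitochondrial share in each of the 14 classes, and its fibroblast-like cells had a median of 2183 UMIs against 9333 and 3945 in libraries 1 and 2.

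Most members gave some UMIs in every class. Of the 32 genes, 29 reached 10 CPM in all 14 classes, against 30.9% of all genes tested, and the exceptions were Egr2, Egr3 and Dusp2. This count set no minimum of UMIs and subtracted no background RNA. Fosl1 passed in Schwann and glia-like cells on 1 UMI (12.7 CPM, 95% Poisson interval 0.321 to 70.6). The levels of the members were uneven. A gene was called class-restricted when its level in its highest class was at least 4-fold the median of the other classes, with the same class highest in every library that gave a value (at least 20 cells). By this rule 13 of 32 members (40.6%) were class-restricted, close to the background of 34.3% over all genes tested. No member was near level, meaning under 4-fold between its highest and lowest class, where 11.8% of all genes were; Jund came closest, at 4.04-fold. The median member was 3.52-fold above the median of the other classes, against 3.71-fold for all genes, and 29.0-fold above its lowest class, against 13.5-fold. That lowest class was plasma cell-like for 17 members and T cell-like for 7. No share over all genes was set beside these counts, so they are not read as particular to these genes.

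The highest class was Schwann and glia-like for 15 members, 7 of which met the rule there: Fos, Fosb, Egr1, Egr2, Ier2, Myc and Zfp36. The share of all genes with that highest class was not set beside these counts, which are therefore not read as particular to the set. Genes outside the set, among them Dusp6 and Cryab, were also highest in this class. This class had only 58 cells, 50 of them in library 3 and none in library 1, and 44.8% of them sat at the minimum of 3 markers. Their median depth was 1300 UMIs, and genes of another compartment put the share of background RNA at 17.0% in library 3. Without library 3, Fos, Fosb, Ier2, Myc and Zfp36 lost the call, at 2.61-fold to 3.78-fold. All of these but Fos also lost it with a gate of 4 markers. With the comparison limited to the 11 classes that had at least 20 cells in every library, 7 of 32 members (21.9%) were class-restricted against 30.1% of genes: Fosl1, Egr1, Egr2, Btg1, Dusp2, Hspb1 and Dnajb1. In the same 11 classes, 3 members were near level, against a background of 24.1%: Jund, Klf6 and Btg2. The same class was highest in every library for 13 of 32 members, against 43.3% of genes.

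**Figure D1:**
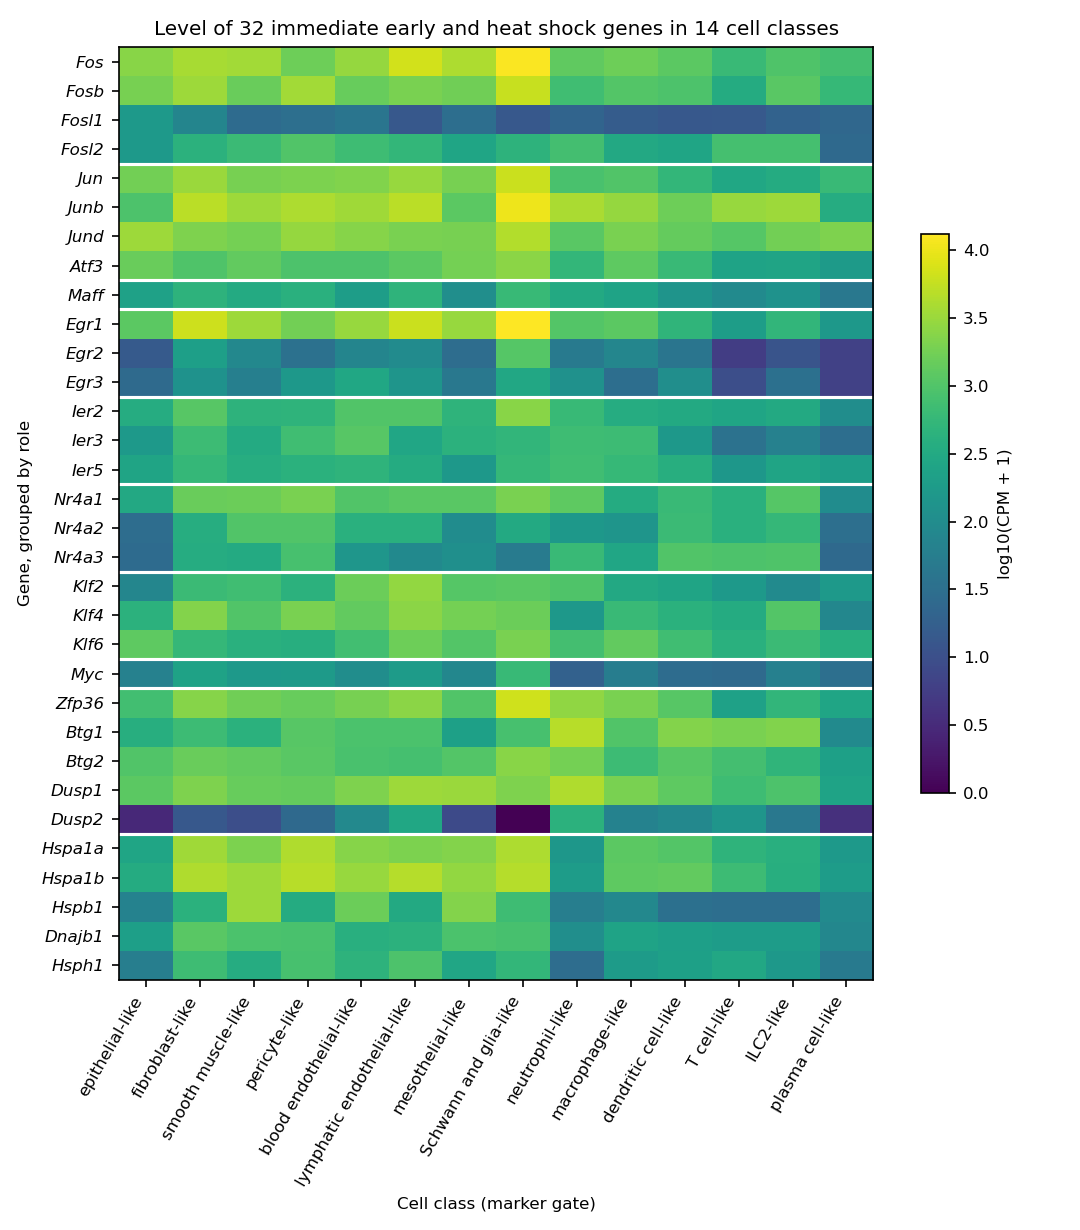
Level of each gene (rows, grouped by role and separated by white lines) in each of 14 marker-gated cell classes (columns), as log10 of CPM plus 1 over all cells of the class. The Schwann and glia-like column is brightest for Fos, Junb and Egr1, Fosl1 is highest in the epithelial-like column, Hspb1 stands out in smooth muscle-like and mesothelial-like cells, and Dusp2 is at 0 in Schwann and glia-like cells.

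Among the FOS family, which supply the partner that gives AP-1 its strength, Fos was expressed in every class. Its level was 12739 CPM in Schwann and glia-like cells (95% Poisson interval 11964 to 13552), 6955 CPM in lymphatic endothelial-like cells and 627 CPM in T cell-like cells, the lowest. In fibroblast-like cells it was 2637, 1746 and 5856 CPM in libraries 1, 2 and 3, and in epithelial-like cells 2706, 2257 and 2933 CPM. The fibroblast-like and epithelial-like ranges overlapped, so that these classes could not be ordered across libraries. In neutrophil-like cells Fos stood at 694, 607 and 4156 CPM, with library 3 far above the others. Fosb, a more stable relative, was also highest in Schwann and glia-like cells at 6078 CPM, 4.15-fold the median of the other classes. It was the steadiest of the family in pericyte-like cells, with 3643, 3277 and 3260 CPM over the libraries.

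Fosl1, encoding FRA1, an AP-1 partner known from epithelial migration and wound repair, was the family's epithelial member. Its gene lies at chr19:5447547-5455946. The epithelial-like level was 170 CPM (169 to 172), 7.61-fold the median of 22.4 CPM over the other classes, and it was 206, 183 and 63.6 CPM in libraries 1, 2 and 3. Epithelial-like cells were highest in each library, although library 3 held less than libraries 1 and 2. The next class, fibroblast-like cells, also held least in library 3, at 122, 124 and 16.0 CPM. With each cell thinned to 1000 UMIs, 15.0% of 9930 epithelial-like cells and 1.55% of 848 macrophage-like cells would show a Fosl1 UMI (79.0% and 5.04% unthinned). Fosl2, encoding FRA2, was the least class-bound by fold over the median, at 2.20-fold. It was highest in pericyte-like cells with 812, 872 and 2000 CPM and lowest in plasma cell-like cells with 25.1 CPM over all libraries.

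The JUN family and Atf3, a stress-induced partner of JUN, were broad and none was class-restricted. Jun, the central AP-1 subunit, had the highest fold of the group over the median of the other classes, 3.54. It reached 6281 CPM in Schwann and glia-like cells and, in fibroblast-like cells, 2999, 2328 and 3671 CPM in libraries 1, 2 and 3. T cell-like cells held 288 CPM of Jun. Jund, the subunit that is present in resting cells and only weakly induced, was the flattest, at 2.30-fold. Its epithelial-like level was 3239, 3488 and 2465 CPM and its T cell-like level 911, 1061 and 2254 CPM, so that library 3 was the lowest of the libraries in one class and the highest in the other. Junb, an inducible subunit that is also prominent in lymphocytes, kept 3026, 2622 and 6072 CPM in T cell-like cells, where Jun was at 288, 225 and 766 CPM. Atf3 was highest in Schwann and glia-like cells (2558 CPM), then mesothelial-like (1812 CPM) and epithelial-like cells (1533 CPM). Maff, a small MAF protein that lacks an activation domain, ranged from 43.9 CPM in plasma cell-like to 608 CPM in Schwann and glia-like cells.

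The EGR zinc finger factors showed the steepest gradients among the transcription factors. Egr1, a direct target of serum response factor, measured 4797, 4135 and 8683 CPM in fibroblast-like cells of libraries 1, 2 and 3. In dendritic cell-like cells it measured 112, 97.1 and 1812 CPM. The lowest fibroblast-like library thus stood above the highest dendritic cell-like one. Over the 11 classes with cells in every library, Egr1 was 5.32-fold and Egr2 5.81-fold higher in fibroblast-like cells than at the median of the others.

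Egr2 (Krox20) is a master regulator of myelin-forming Schwann cells as well as an immediate early gene. It had the highest fold of the group, 27.6 over the median of the other classes: 1089 CPM (871 to 1345) in Schwann and glia-like cells, 214 CPM in fibroblast-like and 4.64 CPM in T cell-like cells. In fibroblast-like cells the libraries gave 199, 184 and 239 CPM and in epithelial-like cells 10.5, 8.84 and 35.5 CPM, with no overlap between those classes. Egr3, a relative also induced by antigen receptors, had the lowest fold of the group, 4.95. It was 291 CPM in Schwann and glia-like and 284 CPM in blood endothelial-like cells, and the same class did not lead in every library.

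The IER genes, short inducible genes with little shared structure, did not follow a common pattern. Ier2 led in Schwann and glia-like cells (2469 CPM, 5.38-fold) and next in fibroblast-like cells with 750, 817 and 1559 CPM in the 3 libraries. Ier3, a survival factor induced by NF-kappaB, led in blood endothelial-like cells with 1230, 1600 and 855 CPM, and there library 3 was the lowest. Ier5, a co-regulator of heat shock factor 1, was the flattest of the group at 1.92-fold, highest in neutrophil-like cells with 697, 474 and 1215 CPM.

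None of the NR4A orphan nuclear receptors was class-restricted. Nr4a1 (Nur77) had the lowest fold of the group, 1.81, with 1987 CPM in pericyte-like and 99.5 CPM in plasma cell-like cells. Nr4a3 (NOR1) had the highest, 3.66, with 1077, 857 and 1087 CPM in dendritic cell-like, 1033, 822 and 1211 CPM in T cell-like and 26.0, 25.2 and 31.2 CPM in epithelial-like cells. It did not follow a division of leukocytes from stroma, since pericyte-like cells held 849 CPM, fibroblast-like 350 CPM, macrophage-like 271 CPM and plasma cell-like cells 24.2 CPM. The libraries differed little in these Nr4a3 values, whereas Nr4a1 in neutrophil-like cells went from 564 and 374 CPM in libraries 1 and 2 to 4611 CPM in library 3. Nr4a2 (Nurr1) was high in pericyte-like (1021 CPM) and smooth muscle-like cells (990 CPM) and lowest in epithelial-like cells (28.9 CPM).

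Of the KLF factors, Klf2, which keeps endothelium quiescent under flow and is also needed for T cell traffic, had the highest fold. It was led by lymphatic endothelial-like (2791 CPM, 2703 to 2882) and blood endothelial-like cells (1587 CPM). The class-restricted call, 6.28-fold, rested on library 3 alone, since libraries 1 and 2 had under 20 lymphatic endothelial-like cells. Blood endothelial-like cells gave 592, 610 and 2720 CPM, and in libraries 1 and 2 neutrophil-like cells were higher, at 988 and 828 CPM. Klf4, a barrier and smooth muscle phenotype factor, had the lowest fold, 2.48. Fibroblast-like cells held 2247, 1640 and 2683 CPM of it and neutrophil-like cells 79.5, 94.5 and 456 CPM. Klf6, an injury-responsive factor, was 1963 CPM in Schwann and glia-like and 380 CPM in plasma cell-like cells, and in epithelial-like cells 1300, 1314 and 899 CPM. Myc, the growth regulator, was low throughout: 608 CPM (448 to 806) in Schwann and glia-like cells, 238 CPM in fibroblast-like cells and 17.9 CPM in neutrophil-like cells, with a class-restricted fold of 9.38.

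Of the feedback genes, Btg1 and Dusp2 were class-restricted to neutrophil-like cells. Btg1, an antiproliferative adaptor of the mRNA deadenylase that is abundant in quiescent blood cells, measured 4788, 4913 and 4815 CPM in neutrophil-like cells of the 3 libraries. Its gene lies at chr10:96617006-96622809. The other classes had a median of 892 CPM, 5.42-fold lower, and epithelial-like cells held 406, 370 and 382 CPM. The 3 neutrophil-like values lay within 1.03-fold of each other while Fos in the same cells differed 6.84-fold. At 1000 UMIs per cell, Btg1 would be seen in 96.4% of 641 neutrophil-like and 31.6% of 9930 epithelial-like cells (96.4% and 95.5% unthinned). Dusp2 (chr2:127336159-127338376), a nuclear phosphatase that inactivates ERK in activated leukocytes, stood at 432, 370 and 585 CPM in neutrophil-like cells, 11.5-fold the median of the other classes, against 1.98 CPM in epithelial-like cells and 0 UMIs in Schwann and glia-like cells, which allows up to 46.7 CPM. Lymphatic endothelial-like cells were next with 284 CPM, followed by T cell-like cells with 139 CPM. Dusp1, the related phosphatase for p38 and JNK, had its highest level in the same class, 4209 CPM, but was not restricted to it, with 3264 CPM in lymphatic endothelial-like and 3199 CPM in mesothelial-like cells. Zfp36 (tristetraprolin), which destabilises cytokine mRNAs, was 6648 CPM in Schwann and glia-like and 2697 CPM in neutrophil-like cells, a fold of 4.51. Btg2, a p53 target that slows the cell cycle, had the lowest fold of the group, 2.42, with 2457 CPM in Schwann and glia-like, 1796 CPM in neutrophil-like and 222 CPM in plasma cell-like cells.

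The Hsp70 genes were higher in stromal than in epithelial-like and neutrophil-like cells. Hspa1a and Hspa1b, the inducible Hsp70 chaperones, lie side by side at chr17:34969190-34972156 and chr17:34956436-34959238. Their transcripts shared 49.3% and 52.3% of their 90-base stretches, but none in the last 500 bases, where 3′ reads fall. Hspa1a was 4942, 3797 and 2311 CPM in pericyte-like and 4233, 4322 and 2285 CPM in fibroblast-like cells of libraries 1, 2 and 3. In epithelial-like cells it was 221, 162 and 711 CPM and in neutrophil-like cells 88.8, 77.8 and 437 CPM. The stromal and the epithelial-like or neutrophil-like libraries did not overlap, and library 3 was the lowest of the libraries in the former and the highest in the latter. Other leukocytes were divided, with dendritic cell-like and macrophage-like cells nearer to stroma. Dendritic cell-like cells held 927, 434 and 2321 CPM, the last above the 2285 CPM of fibroblast-like cells in the same library, and macrophage-like cells held 1349, 917 and 1372 CPM. With libraries pooled, T cell-like, group 2 innate lymphoid-like and plasma cell-like cells held 475, 399 and 160 CPM. Those values lay nearer to the pooled 266 CPM of epithelial-like cells. The fold of Hspa1a over the median of the other classes was 3.46, and that of Hspa1b 3.50, below the rule. Hspa1b measured 4484, 4088 and 4058 CPM in fibroblast-like and 5608, 3532 and 3717 CPM in pericyte-like cells. Library 3 was thus not its lowest in pericyte-like cells. Thinned to 1000 UMIs, 74.4% of 4342 fibroblast-like and 16.7% of 9930 epithelial-like cells would show an Hspa1a UMI (83.9% and 72.0% unthinned).

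Hspb1 (chr5:135887919-135889563), the small heat shock protein that binds actin filaments, had the highest fold of all members over the median of the other classes. It led the second class, mesothelial-like cells, by only 1.46-fold. It measured 4463, 5736 and 1693 CPM in smooth muscle-like cells, 35.3-fold the median of 93.2 CPM over the others, and 3389, 4512 and 1547 CPM in mesothelial-like cells. Blood endothelial-like cells came next with 1862, 2527 and 957 CPM, while pericyte-like cells, a neighbouring mural class, held 339, 433 and 164 CPM. Those 3 leading classes kept the same order in every library. T cell-like cells held 30.2 CPM. At 1000 UMIs, 64.7% of 1383 smooth muscle-like and 2.68% of 1031 T cell-like cells would show an Hspb1 UMI (87.0% and 6.84% unthinned, at median depths of 4734 and 2376 UMIs). Hspa1a was also above the median of its other classes (1231 CPM) in those leading classes, at 2042 CPM in smooth muscle-like, 2308 CPM in mesothelial-like and 2366 CPM in blood endothelial-like cells. The genes parted in pericyte-like cells (Hspa1a 4261 CPM, Hspb1 337 CPM) and in fibroblast-like cells (3385 and 425 CPM). Dnajb1, the Hsp40 co-chaperone of Hsp70, was class-restricted to fibroblast-like cells by 4.73-fold, at 1269, 1409 and 930 CPM, 1.27-fold above smooth muscle-like cells. The call was lost without library 1 (3.66-fold) and without library 2 (3.18-fold). Hsph1, the Hsp110 exchange factor, had the lowest fold of the group, 3.36, with 934 CPM in lymphatic endothelial-like and 834 CPM in pericyte-like cells.

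Summed over the 27 genes, immediate early transcripts made up 8.16% of all UMIs in Schwann and glia-like cells, 4.56% in lymphatic endothelial-like, 4.10% in fibroblast-like and 0.681% in plasma cell-like cells. Library 3 gave 214 of the 250 lymphatic endothelial-like cells, and within it lymphatic endothelial-like cells (48763 CPM) were lower than fibroblast-like cells (54366 CPM). In epithelial-like cells the sum was 20690, 19039 and 22419 CPM in libraries 1, 2 and 3, and in fibroblast-like cells 31528, 28234 and 54366 CPM, so the classes did not overlap. No member gave more than 30.7% of the sum in any class, that share being Jund in plasma cell-like cells. Summed heat shock levels were 9867 CPM in fibroblast-like, 9936 CPM in smooth muscle-like and 11092 CPM in pericyte-like cells, and 946 CPM in epithelial-like and 535 CPM in neutrophil-like cells. Fibroblast-like cells were therefore 2.05-fold above epithelial-like cells in immediate early genes and 10.4-fold above them in heat shock genes. These pooled values mix libraries unequally, since library 3 gave 3234 of 4831 fibroblast-like and library 2 gave 6912 of 9992 epithelial-like cells. Within libraries 1, 2 and 3 the heat shock ratio was 15.4, 18.1 and 3.26, and the immediate early ratio 1.52, 1.48 and 2.42. The heat shock ratio was the higher of the pair in each library, by a small margin in library 3. Pooled without library 2 the heat shock ratio was 6.92, and without library 3 it was 17.2. Neutrophil-like cells had immediate early sums of 25778, 21178 and 62239 CPM and heat shock sums of 315, 324 and 1482 CPM. Their heat shock sum was the lowest of the 14 classes with libraries pooled, but plasma cell-like cells were lower in libraries 2 and 3, at 314 and 1235 CPM. Estimated background RNA was 6.01%, 10.6% and 7.08% of UMIs in epithelial-like cells of libraries 1, 2 and 3 and 2.37%, 4.03% and 6.73% in fibroblast-like cells. With it subtracted, the ratios were 2.09 and 12.1.

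**Figure D2:**
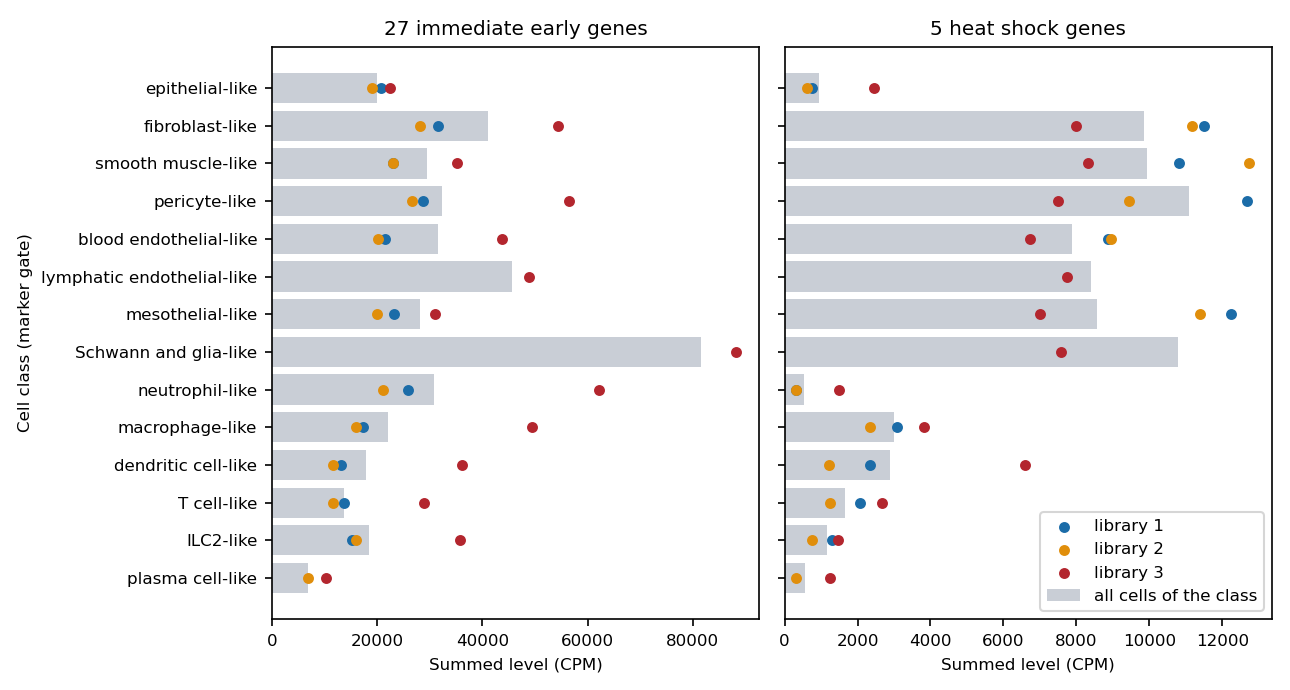
Summed CPM of the 27 immediate early genes (left) and the 5 heat shock genes (right) by cell class. Bars are all cells of a class and points the libraries with at least 20 of its cells. Immediate early sums of library 3 lie to the right of the other libraries in every class with several points, while its heat shock sums lie to the left in fibroblast-like, smooth muscle-like, pericyte-like, blood endothelial-like and mesothelial-like cells.

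Library 3 stood apart for part of the set. A gene was called apart when its level differed at least 4-fold between the highest and lowest library in at least 5 of the 9 classes with 50 or more cells in each library, the same library being highest in those classes. This held for 5 of 32 members (15.6%) against 2.96% of all genes tested, and with library 3 as the highest for the same 5 against 2.77%: Egr1, Egr2, Nr4a1, Klf2 and Dusp1. Leaving out library 1 left 1 such member, and leaving out library 2 or library 3 left 0. The libraries being unassigned, this is not a comparison of exposures. In cells of 1000 to 5000 UMIs, an alternative chosen after the data were seen that had 5 classes, 9 members were apart.

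In macrophage-like cells, Egr1 measured 767, 455 and 4028 CPM in libraries 1, 2 and 3, and Dusp1 1040, 1112 and 6818 CPM. Klf2 measured 193, 102 and 1074 CPM there, and in fibroblast-like cells 287, 211 and 1114 CPM. The epithelial-like values of the same genes lay closer together, at 1252, 1010 and 1766 CPM for Egr1, 1151, 1260 and 1237 CPM for Dusp1 and 82.6, 68.9 and 94.8 CPM for Klf2. Dendritic cell-like Egr1 had an 18.7-fold range between libraries and epithelial-like Dusp1 a 1.09-fold range. Zfp36 was highest in library 3 in all 9 classes but passed 4-fold in only 4 of them. At the other end, Nr4a3 differed at most 1.64-fold between libraries in any of the 9 classes.

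**Figure D3:**
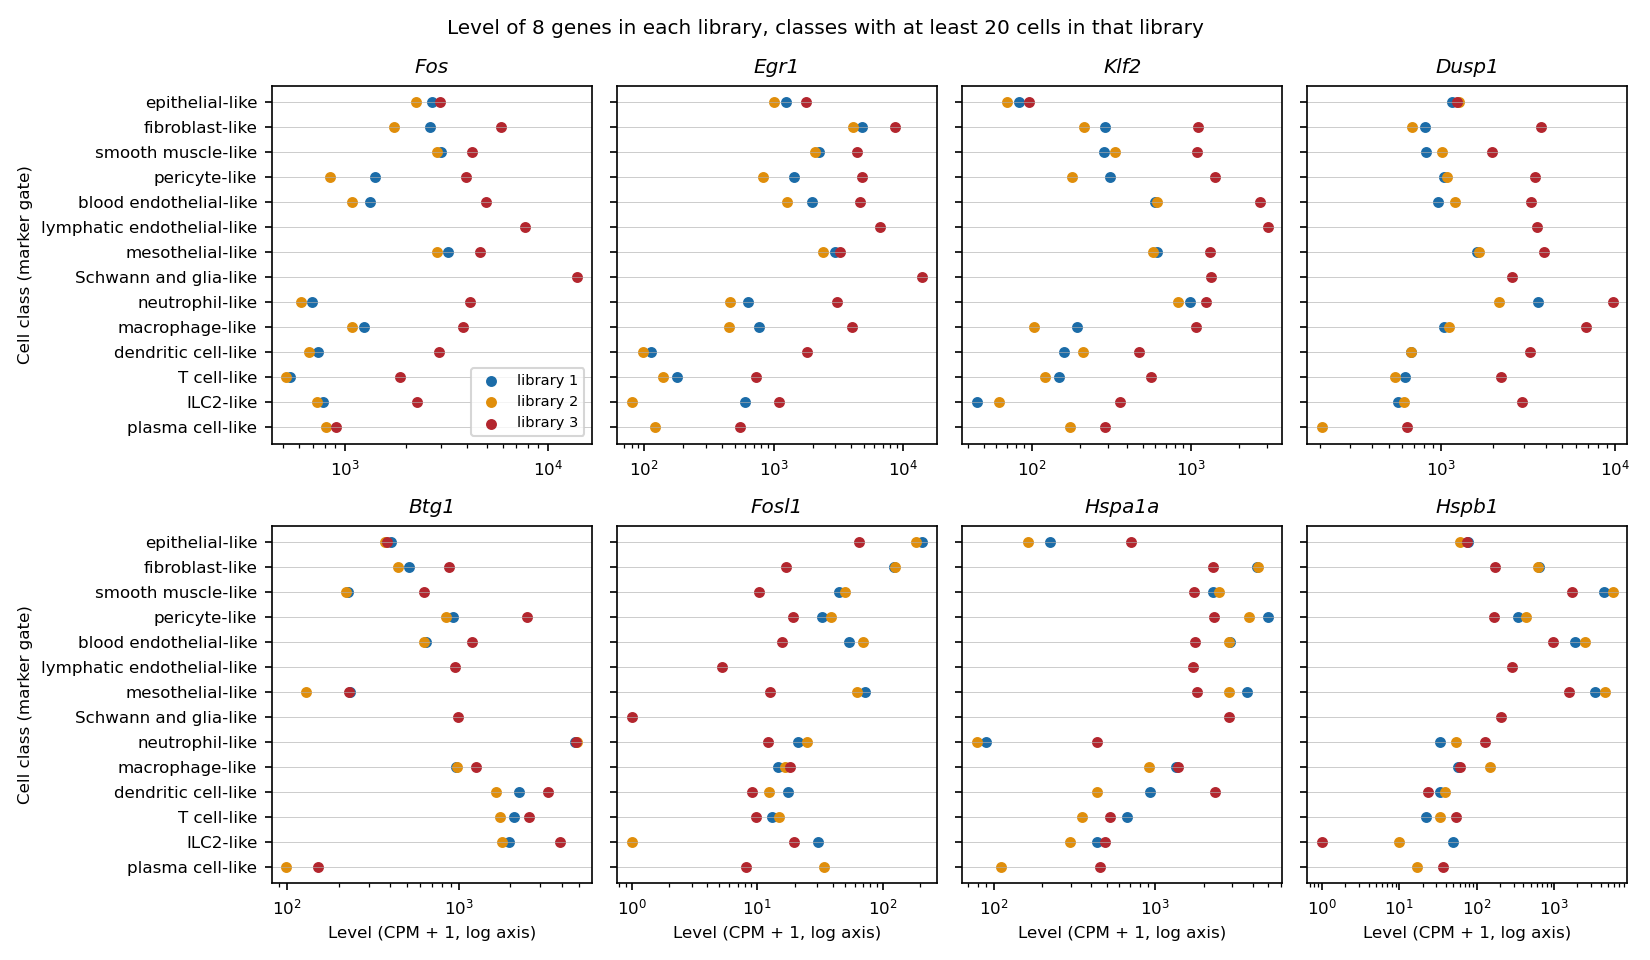
Level of 8 genes (CPM plus 1, log axis) in each class and library, shown where a library had at least 20 cells of the class. Library 3 (red) lies to the right for Egr1 and Dusp1 in leukocyte classes, the 3 libraries coincide for Btg1 in neutrophil-like cells, and library 3 lies to the left for Fosl1 and Hspb1 in stromal classes.

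Over 288 pairs of a member and a class, library 3 was the highest in 215 (74.7%), against 58.8% of such pairs over all genes tested. The median gene was itself 0.01 to 0.39 higher on the log2 scale in library 3 than in library 1, depending on the class, so that differences are read against that shift. For these log2 values, all genes are those tested with at least 50 UMIs in the class, from 2444 in pericyte-like to 11256 in epithelial-like cells. The 32 members entered without that minimum. The median member was 1.53 above library 1 in neutrophil-like cells where the median gene was 0.21 above, and 1.62 above library 2 where the median gene was 0.14 above. In macrophage-like cells the members stood at 1.11 and 1.23, against 0.31 and 0.51 for all genes. In epithelial-like cells they stood at 0.21 and 0.34 against 0.25 and 0.29, which is no excess. Fibroblast-like and smooth muscle-like cells were also close to all genes. The members stood at 0.26 and 0.47 against 0.33 and 0.37 in the former, and at 0.29 and 0.27 against 0.26 and 0.28 in the latter. Heat shock genes parted from immediate early genes: their median log2 difference of library 3 from library 1 was -0.64 in fibroblast-like and -0.57 in blood endothelial-like cells, 1.68 in epithelial-like and 2.29 in neutrophil-like cells. The corresponding immediate early medians were 0.32, 0.83, 0.12 and 1.43. Over library 2, fibroblast-like medians were 0.56 for immediate early and -0.60 for heat shock genes, where all genes stood at 0.37. Smooth muscle-like medians over library 2 were 0.43 and -0.56, where all genes stood at 0.28. Over library 1, immediate early medians were 0.32 in fibroblast-like and 0.35 in smooth muscle-like cells, where all genes stood at 0.33 and 0.26.

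Technical measures also differed between the libraries. Median mitochondrial shares of fibroblast-like cells were 2.77%, 2.08% and 4.11% in libraries 1, 2 and 3. Background RNA was 2.61%, 4.95% and 7.72% in macrophage-like cells and 6.54%, 10.98% and 16.05% in neutrophil-like cells, highest in library 3 in both. In epithelial-like cells it was 6.01%, 10.6% and 7.08%, where library 2 was the highest. The part of these measures in the result was not tested. Cell by cell, immediate early transcripts made up a median of 2.62%, 2.07% and 5.75% of the UMIs of neutrophil-like cells, and the lower quartile of library 3, 4.27%, lay above the upper quartiles of libraries 1 and 2, 3.32% and 2.65%. Among neutrophil-like cells of 1000 to 5000 UMIs the medians were 2.62%, 1.90% and 6.11%. In epithelial-like cells they were 1.53%, 1.56% and 2.10% over all cells, and the quartile ranges overlapped.

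**Figure D4:**
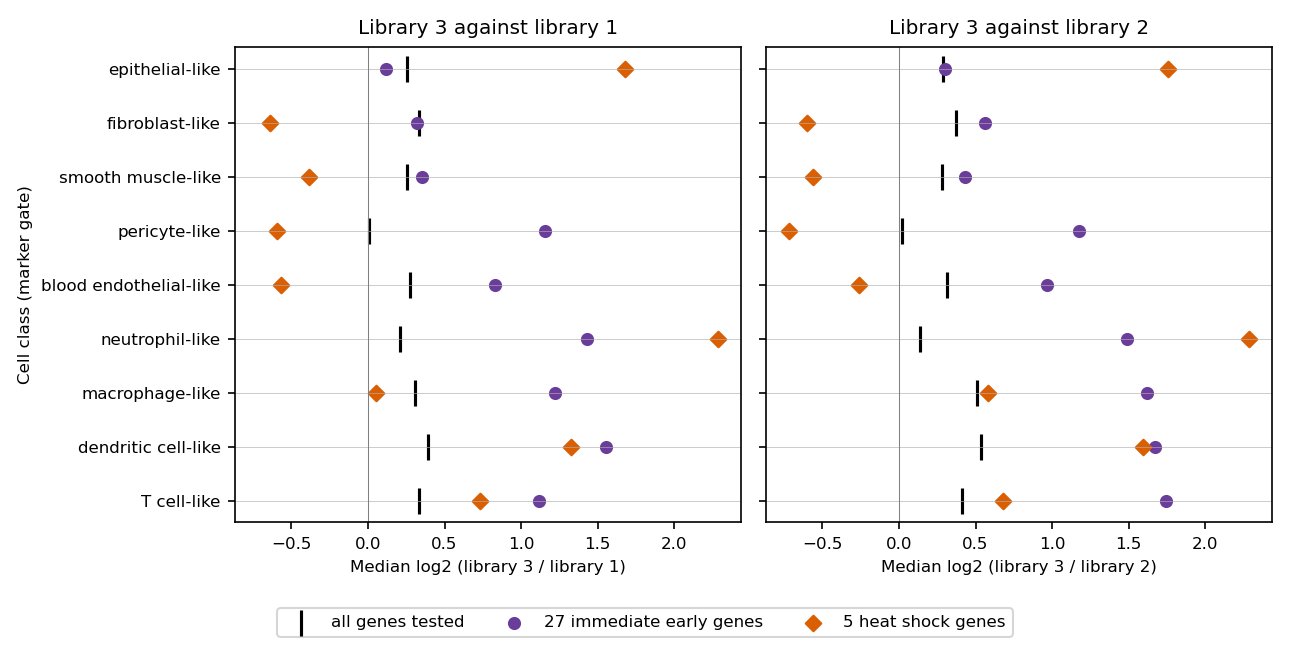
Median log2 ratio of library 3 to library 1 (left) and library 2 (right) in the 9 classes with at least 50 cells in each library. Bars are the genes tested that had at least 50 UMIs in the class, circles 27 immediate early genes and diamonds 5 heat shock genes, both without that minimum. Circles lie to the right of the bars in the leukocyte classes, pericyte-like and blood endothelial-like cells, and diamonds lie below 0 in fibroblast-like, smooth muscle-like, pericyte-like and blood endothelial-like cells.

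Members were also set against Fos and Hspa1a over 33 points, 11 classes in each of 3 libraries, as correlations of log levels. The points of a library share its depth and those of a class its cells, so the values are descriptions. With Fos, the most alike were Egr1 (r = 0.87), Jun (0.81) and Myc (0.71), and the least alike Nr4a3 (-0.43), Btg1 (-0.41) and Dusp2 (-0.40), the last 3 being highest in leukocyte classes. With each library centred on its own mean, Egr1 (0.83), Atf3 (0.81) and Jun (0.80) were the most alike, followed by Myc (0.72), and Btg1 the least alike (-0.80), ahead of Dusp2 (-0.62) and Nr4a3 (-0.61). With Hspa1a, the most alike were Hspa1b (0.97), Hsph1 (0.90) and Dnajb1 (0.88), followed by Klf4 (0.79), an immediate early member, ahead of Hspb1 (0.65). Centred by library, the first 4 kept their places, at 0.99, 0.90, 0.90 and 0.80.

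Related genes outside the set were read by the same rules, under which 34.3% of all genes tested were class-restricted. Of 14 other basic leucine zipper partners of AP-1, 6 (42.9%) were class-restricted. They included Maf (32.4-fold the median of the others, lymphatic endothelial-like) and Batf3, needed for cross-presenting dendritic cells (22.1-fold, dendritic cell-like). The most abundant of the 14 were Cebpb, highest in neutrophil-like cells at 5078 CPM, and Atf4, which was near level. Of 37 other immediate early genes tested, 18 (48.6%) were class-restricted, led by the ERK phosphatase Dusp6 (27.7-fold, Schwann and glia-like), Klf5 (14.7-fold, epithelial-like) and the NF-kappaB inhibitor Tnfaip3 (14.2-fold, group 2 innate lymphoid-like). Cyr61 and Ifrd1 had the highest summed levels, and Rhob, Cyr61 and Ctgf were apart with library 3 highest. Of 17 upstream serum response and kinase genes, 7 (41.2%) were class-restricted. They were led by Elk3 (21.1-fold, lymphatic endothelial-like), Mkl2 (17.8-fold, blood endothelial-like) and Mkl1 (8.29-fold, dendritic cell-like). Mapk3 and Map3k1 had the highest summed levels of that list, and none was apart.

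Of 29 other heat shock and chaperone genes tested, 6 (20.7%) were class-restricted, below the background of 34.3%. They included the small heat shock genes Hspb7 (66.1-fold) and Hspb6 (34.6-fold), both highest in smooth muscle-like cells like Hspb1, and the lens and muscle crystallin Cryab (61.4-fold, Schwann and glia-like). Cryab was 1013 CPM in that class with libraries pooled but 535 CPM in library 3, the only library with at least 20 such cells, and it was not class-restricted over the 11 classes. Hspb6 gave 154, 158 and 108 CPM in smooth muscle-like cells of the 3 libraries. The constitutive chaperones Hspa8 and Hsp90ab1, of highest summed level, were spread evenly by comparison, at 1.67-fold and 1.70-fold the median of the other classes in their highest class. The polyubiquitin gene Ubb was apart with library 2 highest, the only gene apart in these lists whose highest library was not library 3.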

How the data were processed

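The authors deposited a matrix of raw UMI counts for 31053 genes and 27700 barcodes (5643, 11827 and 10230 in libraries 1, 2 and 3), produced by Cell Ranger (6.1.1 in the file headers). Per the submitters' processing notes, the reference was GRCm38, also called mm10. The annotation version and any equalising of depth are not given in the sources used here. Barcodes under 300 genes or above 20% mitochondrial UMIs were removed. A marker was high in a cell above 10% of the mean of its 25 highest cells after scaling for depth, and a class needed 3 of its 8 markers; cells meeting several classes had to lead by 2 markers or were set aside as mixed (416 cells), which was the only treatment of doublets, and 3213 cells matched no class. Counts were summed per class and library and expressed as CPM with exact Poisson 95% intervals; shares are expected shares after thinning each cell to 1000 UMIs, leaving out shallower cells. Intervals and floors cover counting error only. Folds used a floor of 3 UMIs in the denominator. Genes entered at 10 CPM and 20 UMIs in a class.

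The members and the related gene lists were chosen with earlier results of these data known, and the limits of the marker gate were set after the data were seen. All 32 members may be named; the highest and lowest fold of each role group, every class-restricted member, and of each related list the 3 highest restricted folds and the 2 highest summed levels are given, besides genes apart between libraries; 1 gene of these lists is not reported here. Background RNA was estimated from epithelial genes in other classes and from stromal genes in epithelial-like cells. There were no replicates and no test was made. The calling rules were tested on simulated data. Gene positions came from GENCODE M21 and promoters from RefSeq. The tools were pandas 2.3.3, matplotlib 3.10.9, scipy 1.17.1 and numpy 2.4.6 in Python 3.11.15.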

Additional observations from a re-analysis of the deposited data

Results flagged for a closer look

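In library 1, 119 kept barcodes held an Xist UMI, a transcript of the inactive X chromosome, although the mice were labelled male. Libraries 2 and 3 held 17 and 28 such barcodes, and 54 of those in library 1 were macrophage-like, against 0 macrophage-like ones in the other libraries. Without cells holding Xist or at least 2 microglia or photoreceptor markers, the summed immediate early level of macrophage-like cells was 17666, 15825 and 48514 CPM in libraries 1, 2 and 3, against 17302, 15922 and 49484 CPM with them. The summed heat shock level was 3182, 2388 and 3738 CPM without them and 3090, 2348 and 3825 CPM with them.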

How the results depend on the processing

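The count of 13 class-restricted members was 21 with a 2-fold rule, 5 with an 8-fold rule and 7 over the classes with cells in every library, and 9 to 11 with 1 library left out; the other alternatives gave 9 to 13. No member was near level, but 1 was with 500 genes per cell, with gates of 4 or of 2 markers and with libraries weighted equally, 3 with an 8-fold rule, 3 over the classes with cells in every library, and 0 to 2 with 1 library left out. The 5 members apart between libraries became 13 with a 2-fold rule, 0 with an 8-fold rule, 1 with a gate of 4 markers (fewer classes then qualified), 9 in cells of 1000 to 5000 UMIs, and 0 to 1 with 1 library left out. The fibroblast-like over epithelial-like heat shock ratio was 15.4, 18.1 and 3.26 within libraries 1, 2 and 3, ranged from 6.92 to 17.2 with 1 library left out and from 8.03 to 12.1 under the other alternatives. The immediate early ratio was 1.52, 1.48 and 2.42 within libraries and 1.54 to 2.31 under the others. Fibroblast-like cells thus stayed above epithelial-like cells in both sums. The class-restricted share of members did change sides against that of all genes. It was the higher over 14 classes (40.6% against 34.3%) and the lower over the 11 classes with cells in every library (21.9% against 30.1%). Egr1, Egr2, Dusp2 and Hspb1 stayed class-restricted under all 16 alternatives, Egr1 and Egr2 with fibroblast-like cells highest where Schwann and glia-like cells dropped out. Fos, Fosb, Ier2, Myc and Zfp36 lost the call without library 3, which held nearly all Schwann and glia-like cells. Fosb, Ier2, Myc and Zfp36 also lost it with 500 genes per cell and with a gate of 4 markers. Fosb lost it without library 2 as well, and Zfp36 without library 1. Leaving out cells with Xist or neural markers, limiting the classes to those in every library, limiting the depth and taking each library on its own were alternatives chosen after the data were seen. Libraries weighted equally gave no value for the comparison between libraries. The cause of these changes was not tested. No paired analysis was possible because the libraries carry no replicate numbers or group names. Depth limits the small classes most: 58 Schwann and glia-like cells gave an interval of 448 to 806 CPM for Myc.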

Other observations

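The 5 classes with under 50 cells, too small to be compared, were read in the same way. The 33 mast cell-like cells had a summed immediate early level of 55008 CPM, with 5205 CPM of Dusp1 (4648 to 5811), 2282 CPM of Nr4a1 and 2250 CPM of Klf6. Of these cells 25 came from library 3. Within library 3 the mast cell-like sum was 76291 CPM, beside 88211 CPM in Schwann and glia-like and 62239 CPM in neutrophil-like cells. Dusp1 was 8299 CPM there, below the 9734 CPM of neutrophil-like cells, and Nr4a1 was 3348 CPM, below their 4611 CPM. Klf6 was 2575 CPM, near the 2561 CPM of macrophage-like cells. The summed heat shock level of mast cell-like cells was 6502 CPM, and 9787 CPM within library 3. The 38 NK cell-like cells held 1037 CPM of Nr4a2 (844 to 1260), within the interval of its highest compared class, pericyte-like cells (949 to 1096). The 49 tuft cell-like cells, chemosensory cells of the epithelium, had 13706 CPM of immediate early and 1767 CPM of heat shock transcripts. Library 3 gave 24 of them, with 16715 and 2469 CPM, beside 22419 and 2455 CPM in epithelial-like cells of that library. Monocyte-like (47) and B cell-like cells (21) had immediate early sums of 23677 and 12579 CPM.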
